A study of Homo sapiens with 6 samples.

Results

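The clusters described here lay in the last 20% of a 3′UTR, called its distal segment, which ends at the annotated poly(A) site. A cluster is a group of overlapping reads that PARalyzer called around T-to-C conversions, the trace that a crosslinked 4-thiouridine leaves in sequenced RNA. A cluster was a member when its mode, the deposited position of its strongest signal, fell on the same strand in the 3′UTR of the canonical transcript of a protein-coding gene, at 80% or more of the spliced distance from the stop codon to the annotated end. Only 3′UTRs of at least 500 nt were used, of which there were 13342. The rule gave 22097 of the 244645 clusters of the series, and 121493 clusters of the IGF2BP3 libraries lay in the other 4 segments, each 20% of the length.

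IGF2BP3 was precipitated from HCT116, a human colorectal carcinoma cell line of the genotype Tet-OsTIR1-PURO, which all 6 libraries shared. Cells were given 100 µM 4-thiouridine for 15 h and crosslinked with 365 nm light. RNA was cut in the lysate and again on the beads, and concentrations are written in that order in U/µL, giving the libraries RNase I 0.05/0.05, RNase I 0.1/0.025, RNase I 0.05/0.025, RNase T1 1/1 and RNase T1 0.25/0.25, with 1 control IgG library at RNase I 0.1/0.025. Each condition was 1 library without a replicate, RNA was electroeluted in RNase I 0.05/0.05 and RNase T1 1/1 but taken from crushed gel in the other 3 IGF2BP3 libraries, and the antibody also recognizes IGF2BP2 in part. Gel extraction and RNase concentration cannot be told apart between these sets of libraries. The clusters held from 182448 reads in RNase T1 0.25/0.25 to 2362467 in RNase I 0.05/0.05, so 1 read was worth 5.48 and 0.423 CPM (the usual count scaled to library total, here the total of the cluster reads), respectively. A count of reads rises with both the amount of an RNA and its crosslinking, which cannot be told apart here.

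IGF2BP3 is an oncofetal RNA-binding protein that carries RRM and KH domains, binds mostly 3′UTRs in cancer cells and is known for protecting bound mRNAs from decay. The end of a 3′UTR holds the poly(A) signal, a hexamer that the cleavage and polyadenylation complex reads to cut the transcript and add its tail. A gene with several poly(A) sites makes mRNAs with short or long 3′UTRs, and the distal segment is present only in the longest of them. RNase I cuts with little sequence preference, whereas RNase T1 cuts after guanosines.

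The sequences at the modes of the strongest members are shown for a selection of genes. These had the highest distal CPM, or the most reads among the distal segments at least 4-fold apart between the enzymes. Each sequence is 30 nt of GRCh38 centered on the mode and read 5′ to 3′ on the transcribed strand. Capitals mark CATT, CAGT and CATA, tetramers tied to IGF2BP binding, and the poly(A) hexamers AATAAA and ATTAAA. MTPN, DCBLD2, TXNRD1, EREG and HMGA1 and the RNase T1 1/1 lines of RLIM, ARPP19 and BSG were left out. The lines therefore do not give the frequency of the marked motifs.
CD164, RNase I 0.05/0.05, chr6:109366898-109366927, minus strand: aaattttgtgaaaaCATAacaatttgaagc
CD164, RNase T1 1/1, chr6:109366662-109366691, minus strand: gatttgttcttgcagatgttcttctatcaa
KITLG, RNase I 0.05/0.05, chr12:88492923-88492952, minus strand: aaaaaaggttgtaaaatgtgatgtgtatgt
KITLG, RNase T1 1/1, chr12:88493178-88493207, minus strand: gatctctgagctacaatactcactaaatat
RLIM, RNase I 0.05/0.05, chrX:74583443-74583472, minus strand: tccaCAGTataaatatgctgcgggagtttg
ARPP19, RNase I 0.05/0.05, chr15:52547738-52547767, minus strand: actaatttgagccaCATTcccaactctaac
MBNL1, RNase I 0.05/0.05, chr3:152465736-152465765, plus strand: aaAATAAAgtgaaattgccctAATAAAact
MBNL1, RNase T1 1/1, chr3:152465141-152465170, plus strand: gtgaaatcatggatcagatattccttacat
BSG, RNase I 0.05/0.05, chr19:583460-583489, plus strand: gccacAATAAAgatcgcccccacctccacc
YWHAE, RNase I 0.05/0.05, chr17:1344467-1344496, minus strand: gtccaaacacactgaCAGTattatgtttgc
RHOA, RNase T1 1/1, chr3:49359338-49359367, minus strand: aattagacactttggaagatggCATAacct
In CD164, KITLG and MBNL1 the strongest clusters of RNase I 0.05/0.05 and RNase T1 1/1 had modes at different places in the distal segment. In CD164 and KITLG, however, the RNase T1 cluster lay within the longer RNase I cluster. In MBNL1 the cluster held only 10 reads in RNase I 0.05/0.05, against 410 in RNase T1 1/1. The modes of MBNL1 in RNase I 0.05/0.05 and of BSG lay beside a poly(A) hexamer, 29 and 18 nt from the annotated end.

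The distal segment held the smallest number of clusters of the 5 segments in each IGF2BP3 library. It held 7710 of 48498 3′UTR clusters in RNase I 0.05/0.05 (15.9%, 95% Wilson interval 15.6% to 16.2%), 3937 of 26076 in RNase I 0.1/0.025 (15.1%, 14.7% to 15.5%), 3269 of 21471 in RNase I 0.05/0.025 (15.2%, 14.8% to 15.7%), 5807 of 38232 in RNase T1 1/1 (15.2%, 14.8% to 15.6%) and 1374 of 9313 in RNase T1 0.25/0.25 (14.8%, 14% to 15.5%). The interval covers counting error only. Its share of the 3′UTR cluster reads was lower still and ran from 13.7% to 14% in the 5 libraries. The proximal segment next to the stop codon held 25.1% to 29% of the clusters and 27.5% to 29.8% of the reads. The distal share of clusters was below the proximal share in 5 of 5 libraries, by 11.8 percentage points on average (distal minus proximal -11.8, SD 1.95, n = 5), and the share of reads by 14.8 points (-14.8, SD 0.899, n = 5). For both, the two-sided exact sign-flip permutation test over the 5 libraries gave p = 0.062 (adjusted over 7 measures 0.109), the smallest p that 5 libraries allow, so that this design could not reach 0.05. The 5 libraries are different conditions, not replicates of 1.

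The decline was not a steady slope to the end. Clusters per 5% of length fell from 5.96% to 7.26% of the library's 3′UTR clusters in the first 5% to about 4% at 80%, stayed between 3.9% and 4.25% up to 95%, and then fell to 2.74% to 3.36% in the last 5%.

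**Figure D1:**
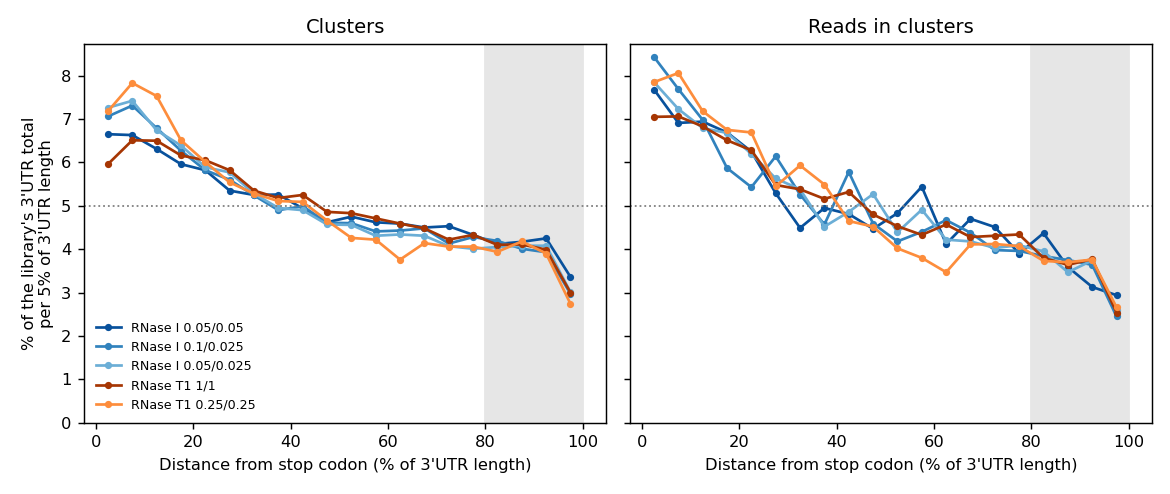
Share of each library's 3′UTR clusters (left) and of the reads in them (right) per 5% of 3′UTR length, from the stop codon at 0% to the annotated end at 100%, in the 5 IGF2BP3 libraries. The gray area is the distal segment and the dotted line is an even spread; in the last 5% of length all 5 libraries lie at 2.74% to 3.36% of the clusters.

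The low share in the last step was located next to the annotated 3′ end. In 3′UTRs of at least 1000 nt, the 50 nt before the end held 417 modes in RNase I 0.05/0.05, against a mean of 725.5 in the 50-nt windows from 500 to 1000 nt before the end, a ratio of 0.575. The ratio was 0.423 in RNase I 0.1/0.025, 0.488 in RNase I 0.05/0.025, 0.52 in RNase T1 1/1 and 0.397 in RNase T1 0.25/0.25. In the next window, 50 to 99 nt from the end, it was 0.703 to 0.88, and the libraries had come back to 0.909 to 1.04 at 150 to 199 nt. With clusters placed by their midpoint, the last window was at 0.275 to 0.579 and the following window at 0.742 to 1.04. The last 50 nt were low by either placement and with both enzymes. A cluster that stops at the annotated end has its midpoint upstream of that end, so the midpoint is not an independent check. How far the end of the transcript itself limits the placing of clusters was not tested.

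**Figure D2:**
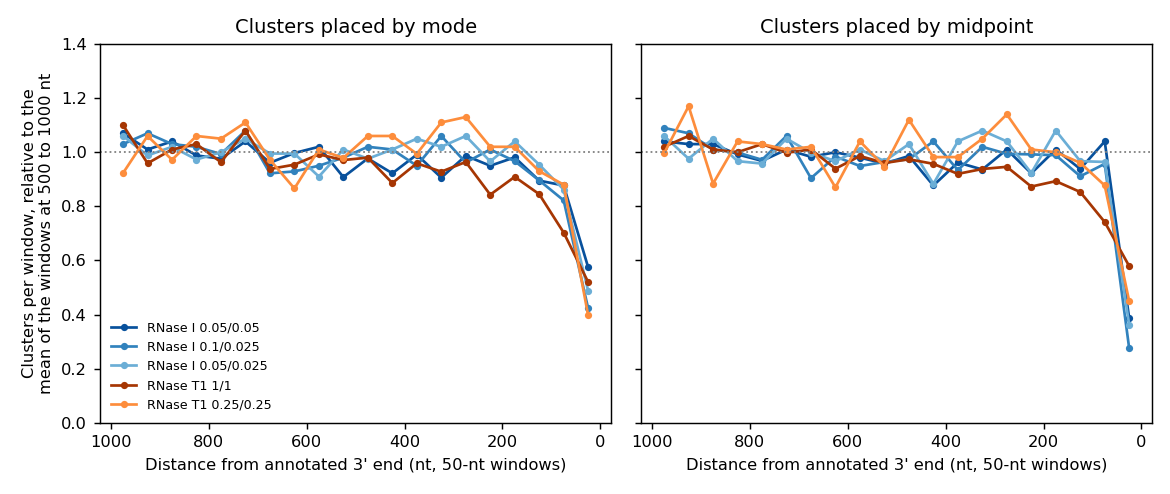
Clusters per 50-nt window by distance from the annotated 3′ end, relative to the mean of the windows at 500 to 1000 nt, in 3′UTRs of at least 1000 nt, with clusters placed by mode (left) or by midpoint (right). Points are the 5 IGF2BP3 libraries and the dotted line is the mean of the reference windows; in the window next to the end all 5 libraries are at 0.397 to 0.575 by mode.

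Among the 7005 3′UTRs with a cluster in any IGF2BP3 library, 5891 (84.1%) held AATAAA or ATTAAA in the last 60 nt, with its first base at a median of 22 nt from the end. In these 3′UTRs 8.75% to 10.8% of the members had their mode in the 50 nt upstream of the hexamer, and 1.69% to 2.82% had it on the hexamer or downstream of it. Most members thus lay farther upstream, and the stretch from the hexamer to the cleavage site held few modes in all 5 libraries. That stretch is also shorter, with a median of 22 nt from the hexamer's first base to the end against 50 nt upstream. The shares were not scaled to length.

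The distal segment is missing from transcripts that end earlier, so 3′UTRs were split by whether another annotated transcript of the gene ends before it within the 3′UTR. Ends outside this 3′UTR, such as in introns or other last exons, were not counted. Where one does, the distal share of clusters was 15.2% in RNase I 0.05/0.05, 14.5% in RNase I 0.1/0.025, 14.6% in RNase I 0.05/0.025, 14.7% in RNase T1 1/1 and 14.4% in RNase T1 0.25/0.25. Where none does, it was 17.6%, 16.7%, 16.8%, 16.4% and 15.9% in the same order. The share was higher without an annotated earlier end in 5 of 5 libraries, and the Wilson intervals overlapped only in RNase T1 0.25/0.25 (13.6% to 15.2% and 14.5% to 17.4%). Clusters of the same 3′UTR are not independent, so the intervals are too narrow and are no test of this difference. Without an earlier end the share remained under an even 20% in each library. The difference from the proximal segment was -7.09 percentage points there, against -11.8 in all 3′UTRs. By length, the share was lowest in 3′UTRs of 4000 nt or more, at 12.9% to 14.7%, and 14.8% to 16.7% in those under 1000 nt. Which poly(A) sites HCT116 cells use was not measured, and its part in these shares was not tested.

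Members were spread over many genes. They lay in 3363 3′UTRs in RNase I 0.05/0.05, in 1976 in RNase I 0.1/0.025, in 1747 in RNase I 0.05/0.025, in 2720 in RNase T1 1/1 and in 834 in RNase T1 0.25/0.25, and 4072 3′UTRs had a member in at least 1 of them. Between 43.7% and 63.2% of these 3′UTRs held a single member in a library, and 15.9% to 31.3% held 3 or more. A member held a median of 8 to 11 reads. In all 5 libraries together 580 3′UTRs had a member, with a median length of 2629 nt, against 2378 nt for the 2511 with any cluster in all 5 libraries and 1765 nt for all 3′UTRs of the rule. In the IgG library 1 of the 25 clusters lay in a distal segment, with 7 reads in ACTG1, which encodes gamma actin. By the mode, ACTG1 had 242 distal reads in RNase T1 0.25/0.25, none in RNase I 0.1/0.025, RNase I 0.05/0.025 and RNase T1 1/1, and no 3′UTR cluster in RNase I 0.05/0.05. The other 4 libraries had 300 to 832 reads over its 3′UTR of 719 nt.

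As crosslinked sites, members resembled the other 3′UTR clusters. The conversion events per read were 0.636 in the distal segment and 0.634 in the other segments in RNase I 0.05/0.05, 0.651 and 0.651 in RNase I 0.1/0.025, 0.61 and 0.608 in RNase I 0.05/0.025, 0.503 and 0.506 in RNase T1 1/1, and 0.56 and 0.555 in RNase T1 0.25/0.25. The mean difference was 0.00131 (SD 0.00259, exact sign-flip permutation p = 0.375, adjusted 0.375), within the spread between libraries. Members were 54 to 56 nt long at the median with RNase I and 33 and 38 nt with RNase T1, shorter than the other clusters by 1.6 nt on average (SD 1.14, lower in 4 of 5 libraries and equal in RNase T1 0.25/0.25). For the length the exact p was 0.125 (adjusted 0.175).

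The study called a gene a target from clusters above 10 CPM in which conversion events exceeded 0.5 per read. Among the members, 19.4% met both criteria in RNase I 0.05/0.05, 39.5% in RNase I 0.1/0.025, 45.9% in RNase I 0.05/0.025, 21.2% in RNase T1 1/1 and 60% in RNase T1 0.25/0.25. Over all clusters of these libraries the percentages were 17.6, 39.1, 45.7, 21.3 and 59.3, and in the other segments 20.5, 41.1, 46.9, 23 and 58.9. Members were thus near the background of their library. The difference from the other segments was -0.879 percentage points (SD 1.17, lower in 4 of 5 libraries, exact p = 0.188, adjusted 0.219). The order of the libraries went with their depth, since 10 CPM was 1.82 reads in RNase T1 0.25/0.25 and 23.6 reads in RNase I 0.05/0.05. The smallest cluster of RNase T1 0.25/0.25 held 2 reads, so all its clusters passed 10 CPM and only the conversion criterion acted there. That library was the one in which members were higher, by 1.13 percentage points.

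Members just past the threshold were about as many as the clusters just before it. At 80% to 81% of the length there were 403 clusters with a median of 10 reads in RNase I 0.05/0.05, and at 79% to 80% there were 419 with a median of 9. In RNase T1 1/1 the counts were 330 and 336, with medians of 10 and 12 reads. The other 3 libraries had 80 to 221 and 78 to 223 clusters there. The median length in RNase I 0.05/0.025 was 53.5 against 64 nt, and RNase T1 0.25/0.25 had 0.575 against 0.527 conversion events per read.

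Poly(A) hexamers were more frequent around members than around other clusters, but not more frequent than in the distal segment itself. In windows of 41 nt centered on the mode, AATAAA or ATTAAA on the transcribed strand was found in 10% of members and 5.05% of the other clusters in RNase I 0.05/0.05, in 8.76% and 4.6% in RNase I 0.1/0.025, in 9.39% and 4.57% in RNase I 0.05/0.025, in 10.8% and 6.19% in RNase T1 1/1, and in 9.32% and 4.77% in RNase T1 0.25/0.25. The mean difference was 4.61 percentage points (SD 0.305, higher in 5 of 5 libraries, exact p = 0.062, adjusted 0.109). Of all 41-nt windows that tiled the distal segments of the same 7005 3′UTRs 11.7% held a hexamer, against 4.93% of the windows of their other segments. Members fell below the tiled windows in each library, by 0.12 to 0.42 on the log2 scale.

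When modes and tiled windows within 50 nt of the annotated end were left out, a choice made after seeing the data, most of the difference was gone. The hexamer was then in 5.55%, 4.77%, 5.16%, 6.76% and 5.15% of the members in the order of libraries above, and in 5.99% of the tiled windows. The mean difference from the other segments was 0.437 percentage points. RNase T1 1/1 was the library in which members lay above the tiled windows, by 0.17 on the log2 scale.

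**Figure D3:**
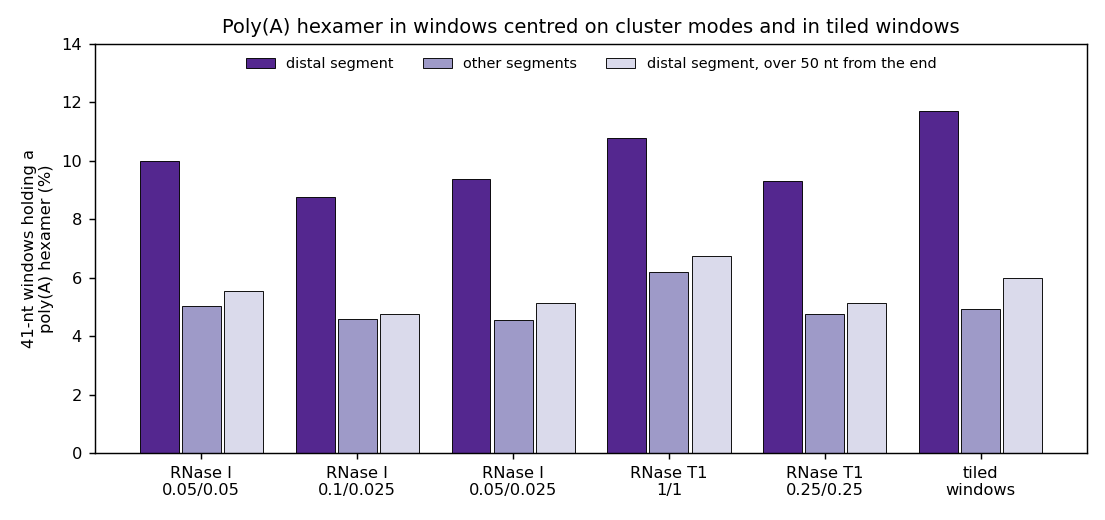
Share of 41-nt windows that hold a poly(A) hexamer, centered on cluster modes in the 5 IGF2BP3 libraries or tiled over the same 3′UTRs (right), for the distal segment, the other segments, and the distal segment without its last 50 nt. Bars start at 0; the distal bar of the tiled windows, 11.7%, is above that of each library.

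The tetramer CATT, tied to IGF2BP binding, was more frequent around members than in tiled windows, and about as far above them as in the other segments. CATT was in 22.7% of the member windows in RNase I 0.05/0.05, 24.8% in RNase I 0.1/0.025, 26.1% in RNase I 0.05/0.025, 33% in RNase T1 1/1 and 32.7% in RNase T1 0.25/0.25, and in 20.7% of tiled distal windows. On the log2 scale this was 0.13 to 0.33 over tiled windows with RNase I and 0.66 and 0.67 with RNase T1, and 0.13 to 0.32 and 0.67 to 0.72 in the other segments. The distal share exceeded that of the other segments by 0.803 percentage points (SD 0.724, higher in 5 of 5 libraries, exact p = 0.062, adjusted 0.109). The difference was only 0.00417 points in RNase T1 0.25/0.25 and 0.0965 in RNase I 0.1/0.025, and 0.957 to 1.59 in the other libraries. Tiled windows of the distal segment themselves held more CATT, at 20.7% against 19.8%. CATA and ACAC were also above the tiled windows in each library, by 0.14 to 0.59 and by 0.21 to 0.47 on the log2 scale. CAGT was above them by 0.07 to 0.36, with the lowest and the highest value in the RNase T1 libraries.

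GGAC, GGGG and ATTTA differed between the libraries of the 2 enzymes, in members and also in the other segments. GGAC, the core of the m6A consensus, was in 8.25%, 8.08% and 7.49% of members with RNase I and in 6.23% and 4.88% with RNase T1, against 7.59% of tiled distal windows. GGGG was in 6.06% to 8.15% and in 5.44% and 4.29%, against 8.43%. The AU-rich pentamer ATTTA was in 13.2% and 11.4% of members with RNase T1 and in 8.05% to 8.46% with RNase I, against 9.13%. Guanosine made up 14.7% and 15.5% of the member windows with RNase T1, 18.5% to 19.6% with RNase I and 20% of the tiled distal windows. In the other segments ATTTA was in 11.8% and 10.8% of windows with RNase T1 and in 7.79% to 7.98% with RNase I. GGAC was in 7.13% and 7.15% there with RNase T1 and in 8.44% to 9.1% with RNase I, and GGGG in 5.64% and 4.76% against 7.49% to 8.62%. Guanosine made up 15.5% and 16.1% of these windows with RNase T1 and 19.4% to 20.3% with RNase I. The Pumilio recognition element was rare, in 0.801% to 1.28% of member windows and 1.16% of the tiled windows. Motifs were searched on the transcribed strand, and the part of RNase cleavage in these shares was not tested. In 55% to 60.7% of members the mode was the first or last base of the cluster, so that the windows reached beyond the cluster on that side.

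Members of the shallower libraries were mostly found again in deeper ones. Of the members in RNase T1 0.25/0.25, 70.1% overlapped by at least 1 nt a cluster of each of the other 4 IGF2BP3 libraries, against 72.8% of its other 3′UTR clusters. The share was 23.3% in RNase I 0.05/0.025, 19.3% in RNase I 0.1/0.025, 15.7% in RNase T1 1/1 and 8.88% in RNase I 0.05/0.05, each below that of the other segments (25.4%, 20.5%, 17.9% and 9.71%). When 50% of the cluster had to overlap, the RNase I libraries no longer differed in this way, with 6.27% against 6.26% in RNase I 0.05/0.025, 4.06% in both in RNase I 0.1/0.025 and 0.649% against 0.615% in RNase I 0.05/0.05. The RNase T1 libraries were still lower, at 11.2% against 12.3% and 55.7% against 59.2%. Libraries with more clusters had lower shares. Members found in all 5 libraries were richer in reads, with a median of 72 against 9 reads for the rest in RNase I 0.05/0.05 and of 30 against 10 in RNase T1 1/1. They were also longer, at 158.0 against 53 nt and 44 against 32 nt, and longer clusters have more bases that can overlap. Merged over the libraries, members formed 9296 loci, of which 54% came from 1 library and 5.88% from all 5.

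Members that crossed the boundary of the distal segment were few but held many reads, and the rule places all reads of a cluster at its mode. In RNase I 0.05/0.05, 675 members (8.75%) reached out of the distal segment and held 28.8% of its reads, and 873 clusters with their mode outside reached in. In RNase T1 1/1 there were 196 (3.38%, with 6.11% of the reads) and 388. Members over 200 nt made up 4.97% in RNase I 0.05/0.05, 2.54% in RNase I 0.1/0.025, 2.72% in RNase I 0.05/0.025, 0.121% in RNase T1 1/1 and 0.146% in RNase T1 0.25/0.25, and the longest had 905 nt. For single genes, values are therefore also given with a cluster's reads split over the bases it covers, an alternative chosen after seeing the data. Over all 3′UTRs this moved the distal share of reads only to 13.7% to 14.8%.

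For the typical gene the distal segment held few of the 3′UTR reads. The other segments were not summarized per gene, so a low median is not shown to be particular to the distal segment. In 1225 genes with at least 20 3′UTR reads in each of the 5 libraries, the distal share averaged over libraries had a median of 7.7% (quartiles 1.15% and 20%). It was 0 in 205 genes and over 50% in 41 genes (3.35%). In single libraries, the genes without distal reads made up 27.8% in RNase I 0.05/0.05 but 56.2% in RNase T1 0.25/0.25, the shallowest. Across these genes, which share libraries and depth, the shares of a pair of libraries correlated with a Pearson r of 0.446 to 0.738 (Spearman 0.474 to 0.764), highest by Pearson between the RNase T1 libraries.

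Among genes with a member in all 5 libraries, the highest mean CPM in the distal segment was that of CD164, which encodes a sialomucin of endosomes and the cell surface (941.1 CPM). Its distal segment held 1936 of 2365 3′UTR reads in RNase I 0.05/0.05, 548 of 918 in RNase I 0.1/0.025, 371 of 732 in RNase I 0.05/0.025, 943 of 1656 in RNase T1 1/1 and 335 of 466 in RNase T1 0.25/0.25. More than 50% of the reads were thus distal in each library by the mode. In RNase I 0.05/0.05 all distal reads belonged to 1 cluster of 905 nt, and split over its bases the share was 42.1% in place of 81.9%. RLIM, an X-linked E3 ubiquitin ligase, had 1075 of 1850, 559 of 851, 518 of 681, 190 of 780 and 164 of 213 reads in the same order. Its distal share was low in RNase T1 1/1 alone, at 24.4% (Wilson interval 21.5% to 27.5%) against 58.1% to 77% in the other 4, and it did not change when reads were split. The RLIM distal segment held 5 to 9 clusters per library, and its strongest in RNase I 0.05/0.05 was 52 nt long.

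KITLG encodes stem cell factor, the ligand of the KIT receptor, and had the next highest mean distal CPM of these genes (922.9). Its distal segment had 669.6, 877.4 and 773.8 CPM with RNase I, in the order 0.05/0.05, 0.1/0.025 and 0.05/0.025, and 1142.4 and 1151.0 CPM with RNase T1 1/1 and 0.25/0.25. These levels were high although the distal share was only 13.9% to 27.3%, as the whole 3′UTR held up to 10378 reads. MTPN, a myotrophin that binds actin capping protein, had 382.8 CPM in RNase T1 1/1 and 553.7 to 915.3 in the other libraries. ARPP19, an inhibitor of the phosphatase PP2A in mitosis, had 222.2 to 1063.3 CPM. The CPM of MTPN and of ARPP19 was highest in RNase T1 0.25/0.25.

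The 6 genes with the highest mean distal share were ATF2 (74.8%), PCYOX1 (74.3%), WDR45B (71.2%), ACLY (70.6%), ATXN2L (70.3%) and DNAJA3 (67.8%). ATF2 is a bZIP transcription factor, and its share was 69.1%, 72.5% and 91.9% with RNase I and 55.5% and 85.1% with RNase T1, unchanged when reads were split. PCYOX1, an enzyme that cleaves prenylcysteines, had 75.3%, 93.1%, 82.3%, 59.6% and 61.5%. In both genes the other 80% of the 3′UTR held the minority of the reads in each library. WDR45B, a phosphoinositide-binding autophagy protein, ranged from 35.6% in RNase T1 1/1 to 100.0% in RNase T1 0.25/0.25, where it had 80 reads, and from 51.8% to 93.6% with reads split. ACLY makes cytosolic acetyl-CoA from citrate, and its share was 44.3% in RNase T1 1/1 and 64.7% to 100.0% in the other libraries. ATXN2L, a stress granule protein, ran from 48.9% to 100.0% and fell to 29.1% in RNase I 0.05/0.025 when reads were split. DNAJA3, a mitochondrial Hsp40 cochaperone, ran from 50.7% to 85.5%. The counts behind these shares were small in RNase T1 0.25/0.25, with 23 to 80 3′UTR reads for these genes.

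At the other extreme, TMED2, EIF5, RAB14 and LSM12 had no member in any library although their 3′UTRs were well covered. They are 4 of the 205 genes that tied at a mean distal share of 0. TMED2, a cargo receptor of the early secretory pathway, had 304, 2702, 1972, 2402 and 663 3′UTR reads in the order of libraries above. EIF5, the GTPase-activating factor of translation initiation, had 1753, 749, 822, 760 and 309. Each of the 4 genes has another annotated transcript that ends before the distal segment, as have 1841 of the 2511 3′UTRs with a cluster in all 5 libraries. When reads were split, TMED2 had 4.08% of its reads there in RNase I 0.05/0.05, and RAB14, a Golgi and endosome GTPase, and EIF5 stayed at 0 in all 5 libraries. These genes were named for their share, which is therefore a description.

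**Figure D4:**
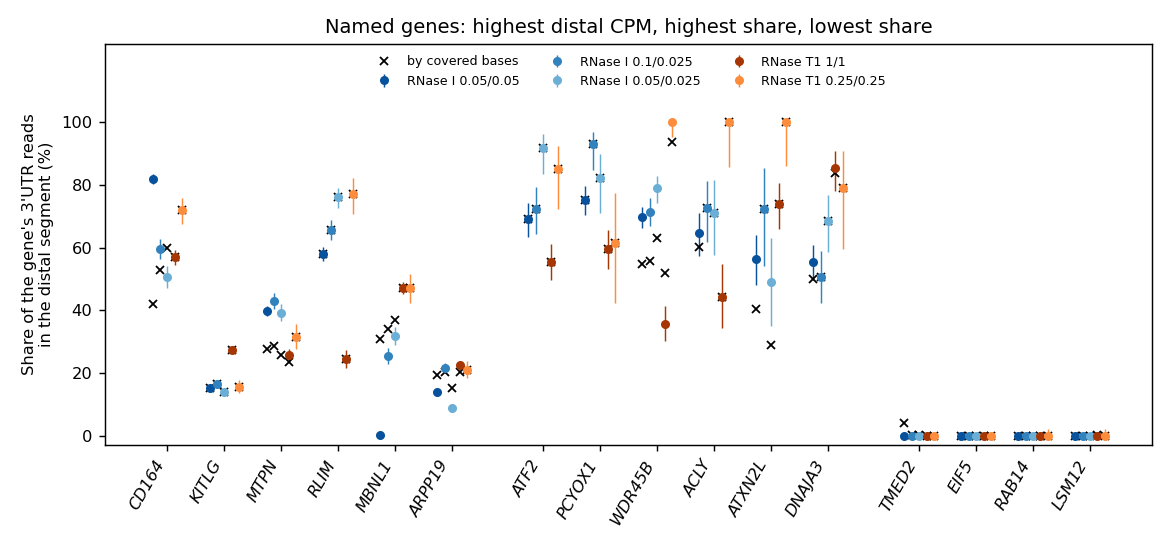
Share of each gene's 3′UTR reads that lay in the distal segment. The genes have the highest mean distal CPM (6), the highest mean share (6) or a mean share of 0 (4 of 205). Colored points are the 5 IGF2BP3 libraries with 95% Wilson intervals (counting error only), crosses give the share with reads split over covered bases; MBNL1 in RNase I 0.05/0.05 moves from 0.276% to 30.8%.

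Between the enzymes, the distal segments of RNase I 0.05/0.05 and RNase T1 1/1 were compared by CPM, in the 2322 with at least 20 reads over both libraries. These are single libraries, so there is no test of the enzymes. RNase I was at least 4-fold higher in 321 distal segments (13.8%) and RNase T1 in 338 (14.6%), with 3 reads in place of 0 where a library had none. Over all segments of 3′UTRs the background was 14.3% and 15.2%, so the distal shares were close to it. Guanosine made up a median of 21.1% of the distal segments higher with RNase I, 18.7% of those within 4-fold and 16.8% of those higher with RNase T1. The order was the same with reads split over covered bases, at 21.3%, 18.6% and 16.2%.

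**Figure D5:**
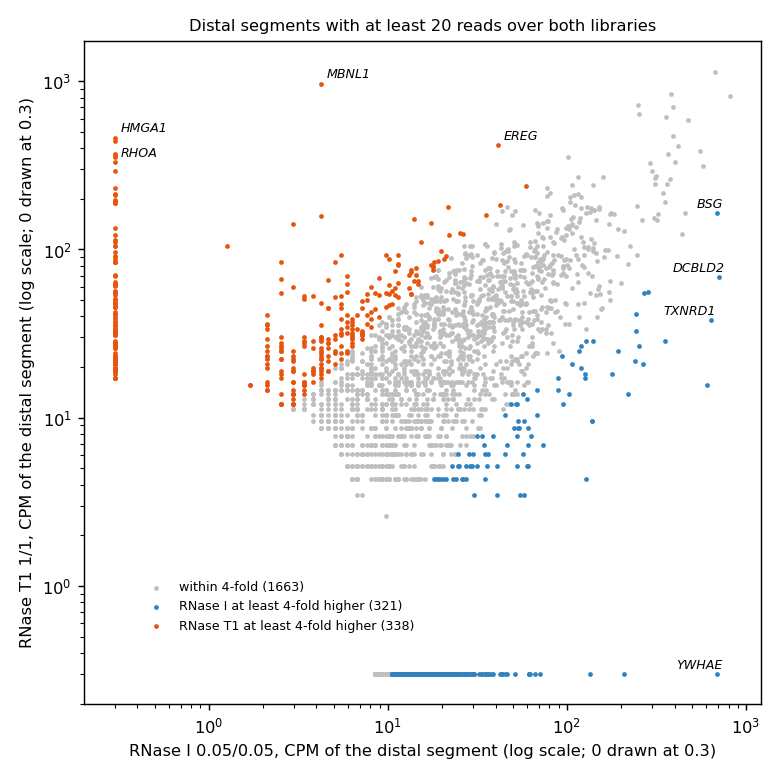
CPM of each distal segment in RNase I 0.05/0.05 and in RNase T1 1/1, on log axes with 0 drawn at 0.3, for the 2322 distal segments with at least 20 reads over both libraries. Color gives the 321 at least 4-fold higher with RNase I and the 338 at least 4-fold higher with RNase T1, and the 4 of each with the most reads are named.

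Many of the largest differences rested on where the mode of 1 long cluster fell. Of the 117 distal segments called higher with RNase T1 that had no read in RNase I 0.05/0.05 by the rule, 79 (67.5%) were reached by an RNase I cluster whose mode lay elsewhere in the 3′UTR. Of the 232 called higher with RNase I that had none in RNase T1 1/1, 28 (12.1%) were reached by such an RNase T1 cluster. With reads split over covered bases, 221 of the 338 RNase T1 calls and 249 of the 321 RNase I calls were still past 4-fold, and the totals were 246 (10.3%) and 314 (13.1%) of 2392. Over all segments the same count gave 9.6% and 12.5% of 15017, close to the distal shares.

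The 4 named genes on the RNase T1 side show this. MBNL1, a splicing regulator of the muscleblind family, had 4.23 CPM in RNase I 0.05/0.05, 358.4 in RNase I 0.1/0.025, 478.6 in RNase I 0.05/0.025, 967.0 in RNase T1 1/1 and 1151.0 in RNase T1 0.25/0.25. The RNase I 0.05/0.05 library alone was low, and with reads split RNase T1 1/1 was 2.05-fold above it in place of 228.4-fold. RHOA, the small GTPase of actin contractility, had no distal read in RNase I 0.05/0.05 and 443.3 CPM in RNase T1 1/1, at least 349.1-fold higher, and 2.03-fold with reads split. HMGA1, an architectural chromatin protein, had 0, 3478.6, 320.6, 461.5 and 328.9 CPM in the order of libraries above. Against 0 in RNase I 0.05/0.05 the RNase T1 1/1 level was at least 363.4-fold higher, and with reads split the direction turned, with RNase I 0.05/0.05 2.33-fold higher. EREG, the EGF receptor ligand epiregulin, had 41.5, 146.9, 110.3, 417.4 and 641.3 CPM, and its 10.1-fold difference became 1.16-fold in the other direction. None of the 4 remained past 4-fold.

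On the RNase I side, 3 of 4 did. YWHAE, the 14-3-3 epsilon protein, had 689.5 CPM in RNase I 0.05/0.05, all in 1 cluster of 810 nt. By the mode it had no distal read in the other 4 libraries. It was at least 266.0-fold above RNase T1 1/1 by the mode and 9.38-fold with reads split. TXNRD1, the cytosolic thioredoxin reductase, had 635.4, 104.5, 153.6, 38 and 197.3 CPM, a 16.7-fold and, with reads split, 6.14-fold difference. DCBLD2, a transmembrane receptor-like protein, had 709.4, 820.2, 190.8, 68.3 and 120.6 CPM, a 10.4-fold and 4.92-fold difference. BSG, the surface glycoprotein basigin, had 692.5, 33.6, 26.8, 164.2 and 27.4 CPM and went from 4.22-fold to 3.24-fold. In BSG, YWHAE and TXNRD1 the RNase I 0.05/0.05 library stood above both other RNase I libraries as well, by the mode. Those libraries also differ from it in gel extraction and RNase concentration, and the cause was not tested. Between the crushed-gel libraries RNase I 0.05/0.025 and RNase T1 0.25/0.25, the log2 ratio was -0.03 for BSG, -0.36 for TXNRD1 and 0.66 for DCBLD2.

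Among 16 genes of the IGF2BP family and its long-studied targets, 9 (56.2%) had a member in at least 1 library and 6 (37.5%) in all 5, against 30.5% and 4.35% of all 3′UTRs of the rule. Of these genes 13 had any 3′UTR cluster, and of the 7005 3′UTRs with a cluster 4072 had a member, while of the 2511 with a cluster in all 5 libraries 580 had a member in all 5. Those in all 5 included CCND1, CCNG1, CD44, HMGA2 and IGF2BP3. CD44, a hyaluronan receptor, had 135.9, 139.4, 159.5, 114.9 and 213.8 distal CPM in the order of libraries above, a narrow range for a distal share of 10.6% to 16.3%. CCND1, which encodes cyclin D1, had 440.6, 235.2, 332.5, 124.4 and 306.9 CPM, lowest in RNase T1 1/1. The IGF2BP3 mRNA itself had 96 distal of 288 3′UTR reads, 28 of 67, 24 of 60, 86 of 269 and 21 of 21, in the same order. MYC had no member, with 299, 190, 73, 221 and 80 3′UTR reads, nor had IGF2BP2 with 6 to 189. BTRC and CCND3 had 3′UTR reads in some libraries and no member, and IGF2, IGF2BP1 and LIN28B had no 3′UTR cluster in any library.

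Of 14 genes known for alternative polyadenylation, 10 (71.4%) had a member in at least 1 library and CCND1, RAB10, TIMP2 and VMA21 (28.6%) in all 5. Over all 3′UTRs of the rule this was 30.5% and 4.35%. Any 3′UTR cluster was found in 12 of the 14 genes. As background, 4072 of the 7005 3′UTRs with a cluster had a member, and 580 of the 2511 with a cluster in all 5 libraries had a member in all 5. VMA21, an assembly factor of the vacuolar ATPase, had 152.0, 159.3, 162.5, 174.6 and 153.5 CPM, the narrowest range among the genes of this list with a member in each library, at a distal share of 34% to 48.9%. RAB10, a GTPase of membrane traffic, had 102.0, 123.2, 98.4, 354.3 and 246.6 CPM, higher in both RNase T1 libraries than in the RNase I libraries. FGF2, a growth factor, had 43 of 52 3′UTR reads in the distal segment in RNase T1 1/1 and no distal read in the other libraries. CDC42, a GTPase of cell polarity, had no member with 506 3′UTR reads in RNase I 0.05/0.05.

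Of the 20 cleavage and polyadenylation factors and poly(A)-binding proteins, 14 had a 3′UTR of 500 nt or more and 9 of these (64.3%) a member in at least 1 library. NUDT21, a subunit of cleavage factor I, and PAPOLA, the poly(A) polymerase alpha, had one in all 5. NUDT21 had 85.1, 171.8, 120.8, 109.7 and 142.5 CPM at a share of 26.8% to 39.4%. PAPOLA had 38.1, 92.1, 88.0, 17.3 and 32.9 CPM, and its distal share was 21% to 28% with RNase I and 7.58% and 11.5% with RNase T1. Of 27 genes the study names, 18 had a 3′UTR of 500 nt or more, 9 (50%) had a member in at least 1 library and none had one in all 5. The study chose these genes on the same libraries. Any 3′UTR cluster was found in 13 of the 14 cleavage and polyadenylation genes and in all 18 of the genes the study names. Over all 3′UTRs with a cluster, 4072 of 7005 had a member in at least 1 library. Of the 2511 with a cluster in all 5 libraries, 580 had a member in all 5. How many genes of each list had a cluster in all 5 libraries is not given, so the list shares in all 5 have no matched background. In none of the 4 lists was the share tested, and genes with more 3′UTR reads have more clusters to place.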

How the data were processed

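IR-PAR-CLIP clusters of 5 IGF2BP3 libraries and 1 IgG library of HCT116 cells were analyzed, 1 library per condition. Per the methods and the submitters' processing notes, the authors demultiplexed with bcl2fastq 2.20.0.422, extracted molecular identifiers and, after alignment, deduplicated with UMI-tools 1.1.1, trimmed with Trimmomatic 0.30, aligned to GRCh38 with Bowtie 0.12.7 and ran PARalyzer on each library separately. The deposited values are counts of reads and of conversion events per cluster, not normalized. The deposited cluster start, end and mode positions were used as given.

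Clusters were placed on 3′UTRs after the stop codon in GENCODE release 44. A mode in several 3′UTRs (869 clusters) was taken where it was most distal. CPM is relative to the library's cluster reads. All 244645 cluster sequences were compared with GRCh38 and 0 differed. Differences over the 5 libraries were tested with an exact two-sided sign-flip permutation test, and p-values were adjusted over 7 measures by Benjamini-Hochberg. Intervals of shares are 95% Wilson intervals and cover counting error only. Cluster reads stand in for depth and are less than all reads of a library. Scripts used Python 3.11.15, numpy 2.4.6, pandas 2.3.3, pysam 0.24.0, bedtools 2.31.1, samtools 1.23.1 and matplotlib 3.10.9 and were tested on simulated data.

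The members, the 4 gene lists and the rule for named genes were chosen with earlier results of these data known. The rule named the 6 genes with members in all 5 libraries and the highest mean distal CPM. Among genes with at least 20 3′UTR reads in each library, it named the 6 with the highest mean distal share and 4 with the lowest. The lowest share, 0, was common to 205 genes. The rule also named the 4 distal segments past 4-fold with the most reads in each direction, list members and genes of distal IgG clusters. Alternatives changed the minimum length, the cluster position, the clusters kept, the window, the fold, the denominator, the overlap and the libraries. The deposited mode score was not used here. 1 member of a gene list is not reported here.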

Additional observations from a re-analysis of the deposited data

How the results depend on the processing

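The direction of the mean of each of the 7 differences was kept under all alternatives run, those without 1 library included, and with 5 libraries none could pass 0.05. For CATT the exact sign-flip p rose to 0.312 with cluster midpoints and among clusters of at least 10 reads. The same p was 0.188 without clusters past the annotated end and 0.125 in windows of 21 nt. In each of these settings the libraries no longer all shared the direction of the mean. The hexamer difference was 2.17 percentage points in windows of 21 nt, and the CATT difference was 2.46 in 3′UTRs with no earlier annotated end and 0.488 among clusters of at least 10 reads, against 4.61 and 0.803. The conversion difference was 0.000437 to 0.0022 without 1 library, lowest without RNase T1 0.25/0.25, and the difference in the target criteria -1.38 without that library. In 3′UTRs with no earlier annotated end the counts of members fell to 2457, 1201, 971, 1753 and 378 (RNase I 0.05/0.05, 0.1/0.025 and 0.05/0.025, RNase T1 1/1 and 0.25/0.25). The numbers of distal segments past the fold for RNase I and RNase T1 were 101 and 175 at 8-fold, 161 and 160 with at least 50 reads, 59 and 63 between the crushed-gel libraries, 396 and 286 with CPM of 3′UTR reads, and 314 and 246 with reads split over covered bases. Members in all 5 libraries fell to 0.649%, 4.06%, 6.27%, 11.2% and 55.7%, in the order above, when 50% of the cluster had to overlap.

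For named genes the log2 ratio of RNase I over RNase T1 reversed between the crushed-gel libraries for BSG (-0.03), TXNRD1 (-0.36) and RHOA (at least 4.81, as RNase T1 0.25/0.25 had no read), and with reads split over covered bases for EREG (0.21) and HMGA1 (1.22), where by construction a long cluster gives only part of its reads. The cause of the first 3 was not tested. Between the crushed-gel libraries the ratio was also nearer to 0 for HMGA1 (-0.04) and MBNL1 (-1.27). No paired analysis was possible because no condition has replicates to pair between conditions, and the tests pair segments within each library. In RNase T1 0.25/0.25, depth limits a gene's distal share, as 1 read is 5.48 CPM.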
